A study of Sus scrofa with 6 samples.

Results

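Dermal fibroblasts are the cells that build and remodel the collagen matrix of the skin. They secrete fibrillar collagens, small proteoglycans such as decorin and lumican, and the proteases that turn this matrix over, and they also release chemokines and acute-phase proteins that act on immune cells. Several subsets are known: cells marked by Pi16 and Dpp4 lie in the fascia and adventitia, others surround hair follicles and nerves, and injured skin holds contractile and chemokine-secreting forms. The cells described here are the dermal fibroblasts that remained after cells with markers of 3 such subsets had been set aside.

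Single-cell RNA sequencing of 6 skin libraries was used, 1 library per label, so no comparison between labels had a replicate check and no p-value is given. Every library was labelled as unsorted cells from the skin of the red duroc pig. The library labelled normal had no treatment, and the library labelled irradiated had no patch. The other 4 labels name a 1 mg patch of deferoxamine, an iron chelator, written "DFO TDDS": pretreatment, given 2 weeks ahead of radiotherapy, continuous, given over the whole 18 weeks, acute, labelled with 12 weeks of recovery, and chronic, labelled with 4 weeks after recovery. The labels give no radiation dose, age or number of animals. All 32285 gene features of the 6 matrices were mouse Ensembl genes, and the normal, irradiated, acute and chronic matrices also held 4 anti-mouse hashtag antibodies, against the pig labels. The libraries are therefore called by their labels, and the part of radiation or deferoxamine in any difference cannot be told.

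Kept cells had 1000 or more gene UMIs (unique molecular identifiers, 1 per captured RNA molecule), 300 or more genes detected and no more than 20% of UMIs from mitochondrial genes. A kept cell was gated as a fibroblast with at least 8 UMIs in all of Col1a2, Dcn, Lum and Pdgfra, no UMI of the leukocyte gene Ptprc and at most 2 UMIs of the pericyte gene Rgs5. The remaining dermal fibroblasts, called members below, then had fewer than 2 UMIs of Pi16 and Dpp4 together, fewer than 3 of Cxcl5, and fewer than 2 of Wif1, Pappa2, Coch and Slc26a7 together (the Wif1 set). They numbered 2096 of 5750 fibroblast-gated cells, 63474 kept cells and 88337 deposited barcodes. By library there were 576 members (normal), 441 (irradiated), 142 (pretreatment), 134 (continuous), 688 (acute) and 115 (chronic). No member barcode was shared between libraries. The members were chosen by these measured UMIs, so the shares and the contrasts with the excluded cells are descriptions.

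Deposited gene UMIs per library ranged from 18611144 to 54966435. The pretreatment library stood apart: it kept 1396 cells, against 8407 to 16663 in the others, and 4 of its fibroblast-gated cells passed the Cxcl5 limit, against 104 to 672. Its members were also the deepest, with a median of 8324 UMIs, against 2901 (normal), 3291 (irradiated), 5865 (continuous), 2985 (acute) and 4787 (chronic). Neutrophil markers (8 genes such as S100a8) summed to 15.6 CPM in its members, with 5 of 8 genes detected, and to 1209 to 4774 CPM in the members of the other libraries, with all 8 detected. CPM here means UMIs of a gene per 1000000 gene UMIs, summed over the members of a library. Free RNA or cells caught together with a fibroblast cannot be told apart from expression in these sums, and no doublet caller was run.

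The label was checked on its 4 markers. Decorin (Dcn), a collagen-binding proteoglycan that is also part of the gate, stood at 6516 CPM (normal), 6657 (irradiated), 15658 (pretreatment), 7374 (continuous), 6806 (acute) and 6186 (chronic). Lumican (Lum), of the same family and also part of the gate, ranged from 1107 CPM in chronic to 3400 in pretreatment. The microfibril protein gene Mfap4 was not used by the rule and was present in all 6 libraries, at 453, 325, 781, 537, 473 and 201 CPM (normal, irradiated, pretreatment, continuous, acute, chronic, the order of every such list here). Asporin (Aspn), a proteoglycan that also was not used, stood at 395, 407, 385, 211, 429 and 311 CPM in the same order. In continuous, a coarse gate of another cell type held more Aspn, at 232 CPM, than the members did, so Aspn did not set the members apart in every library. Col1a1, the main chain of type I collagen, ranged from 9572 CPM in continuous to 19322 in pretreatment, and Col3a1 from 5765 to 15542, lowest in continuous and highest in normal. The members carried fibroblast RNA in every library.

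In a minority of the members the gate genes were a small share of the UMIs. The 4 gate genes held a median of 2.24% of a member's UMIs (normal), 1.88% (irradiated), 3.22% (pretreatment), 1.33% (continuous), 2.06% (acute) and 1.31% (chronic). They held under 1% in 72 members of normal (12.5%), 86 of irradiated (19.5%), 16 of pretreatment (11.3%), 45 of continuous (33.6%), 102 of acute (14.8%) and 42 of chronic (36.5%). Col1a1 stood at 3340 CPM in these cells and 15999 CPM in the other members of chronic, at 590 and 23304 in pretreatment, and at 4560 and 20291 in normal. The cells under 1% were thus much poorer in collagen in all 3.

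The cells under 1% carried markers of other skin cells. In chronic, 10 of the 42 cells held 10 or more UMIs of keratinocyte markers and 9 held as many of the hair follicle keratins Krt25, Krt28 and Krt71, and in continuous 6 and 5 of 45 did. Adipocyte markers reached 10 UMIs in 9 of 86 such cells in irradiated, 5 of 45 in continuous and 9 of 102 in acute, and Schwann cell markers in 7 of 102 in acute. Among the members at 1% or more, the adipocyte markers did so in none of irradiated, 1 of continuous and 4 of acute, and the keratinocyte markers in 1 cell, of acute. Neutrophil RNA was present on both sides of the limit. Neutrophil markers reached 10 UMIs in 81 of 504 members at 1% or more in normal, 65 of 355 in irradiated, 0 of 126 in pretreatment, 12 of 89 in continuous, 113 of 586 in acute and 5 of 73 in chronic. Their summed level at 1% or more and under it was 1942 and 829 CPM in continuous, 1346 and 935 in chronic, and 3928 and 9257 in irradiated. For this reason each result below is given for all members and, where it differs, for the 504, 355, 126, 89, 586 and 73 members at 1% or more (normal, irradiated, pretreatment, continuous, acute, chronic), a limit chosen after seeing the data.

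**Figure D1:**
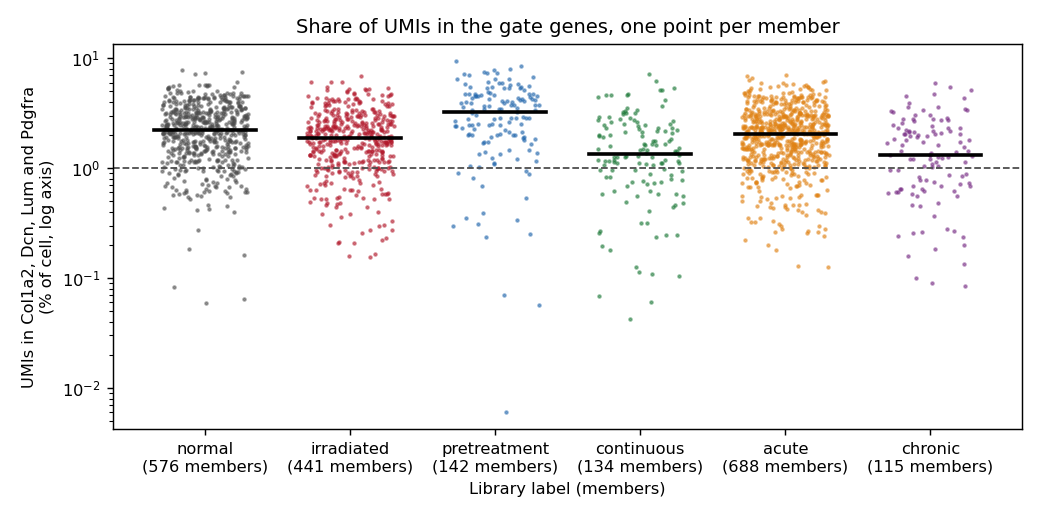
Share of each member's UMIs in the 4 gate genes (y, percent, log axis) by library (x); each point is 1 member, black bars are medians and the dashed line is 1%. Medians lie between 1.31% in chronic and 3.22% in pretreatment, and continuous and chronic have the most members under the line, 33.6% and 36.5%.

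Members made up 34.2% of the fibroblast-gated cells in normal (exact Clopper-Pearson 95% interval 31.9 to 36.5), 36.1% in irradiated (33.4 to 38.9), 29.3% in pretreatment (25.3 to 33.6), 26.7% in continuous (22.9 to 30.9), 44.6% in acute (42.1 to 47.2) and 36.2% in chronic (30.9 to 41.7). All intervals here cover counting error only. The share was highest in acute, whose interval overlapped that of no other library. It was lowest in continuous and pretreatment, whose intervals overlapped. Of all kept cells, members were 4.65% (normal), 2.65% (irradiated), 10.2% (pretreatment), 1.59% (continuous), 4.25% (acute) and 1.36% (chronic). The excluded subsets varied more: cells with Pi16 and Dpp4 numbered 609, 419, 313, 229, 305 and 97, cells with Cxcl5 672, 539, 4, 161, 610 and 104, and cells with the Wif1 set 66, 72, 124, 148, 68 and 58 in the same order, and a cell can belong to more than 1 of these.

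The share moved with the depth at which the rule was applied. Members were shallower than the Pi16 and Dpp4 cells in all 6 libraries, with medians of 2901 against 4793 UMIs in normal and 8324 against 13647 in pretreatment. When every kept cell of at least 2000 UMIs was thinned to 2000 UMIs before the rule was applied, the share of gated cells became 49.4% (normal), 47.4% (irradiated), 59.7% (pretreatment), 48.4% (continuous), 56.3% (acute) and 56.2% (chronic). Pretreatment then had the highest share in place of one of the lowest. With no UMI allowed of any excluding gene, the shares were 16.4%, 19.2%, 17.6%, 17.0%, 25% and 22%, and acute was again the highest. No order of the libraries by this share held under all 3 ways of counting.

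Cells next to each limit differed most at the gate itself. The 40 members with exactly 8 gate UMIs held 133 CPM of Aspn and 1889 CPM of Col1a1, and the 39 cells with 1 UMI fewer held 26.9 and 469. The 430 members with 1 UMI of Pi16 and Dpp4 held 17124 CPM of Col1a1, against 16673 in the 220 cells with 2, and Mfap4 stood at 516 and 320. At the Cxcl5 limit, Col1a1 was 16305 CPM in 189 members and 18105 in 141 cells outside, and at the Wif1 set limit it was 11526 in 134 members and 9862 in 59 cells outside, where Mfap4 stood at 470 and 650.

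**Figure D2:**
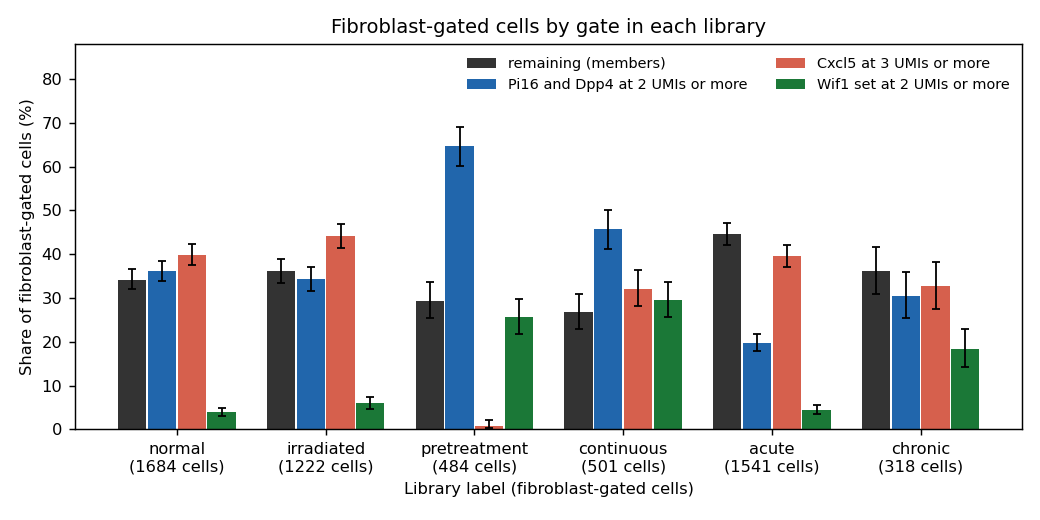
Share of fibroblast-gated cells (y, percent) that were members or passed the limit of an excluded subset (bars) in each library (x, with the number of gated cells); error bars are exact 95% binomial intervals for counting error. Members lie between 26.7% in continuous and 44.6% in acute, and Cxcl5 cells are nearly missing from pretreatment, with 4 cells.

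The members were first set against the 3 excluded fibroblast subsets within each library. A gene was counted as different when its median ratio over the libraries was at least 1.5-fold and it lay on the same side in every library. Genes of the rule were not left out of these counts, and for the excluding genes the rule itself favoured the lower side. Against the cells with Pi16 and Dpp4, 21 of 1228 genes were higher (1.71%) and 78 lower (6.35%). Grem1, a secreted antagonist of bone morphogenetic proteins, was a median of 3.18-fold higher in members, with log2 ratios of 1.62 (normal), 2.29 (irradiated), 1.71 (pretreatment), 1.59 (continuous), 1.37 (acute) and 1.79 (chronic). Lrrc15, a membrane protein known from activated fibroblasts, was 2.57-fold higher, and the retinoic acid-binding protein gene Crabp1 was 2.23-fold higher. The matrix-degrading enzymes cathepsin K (Ctsk) and Mmp14 were 1.57-fold and 1.55-fold higher, and Gpnmb, a glycoprotein gene, 1.59-fold. Ratios of Crabp1 spread widely, from a log2 value of 0.07 in pretreatment to 2.66 in chronic. Acta2, the smooth muscle actin of contractile fibroblasts, was chosen after its values were seen and was a median of 6.6-fold higher, and higher in all 6 libraries. Its log2 ratios ranged from 0.30 in pretreatment, where members held only 22.1 CPM, to 4.14 in chronic. With members thinned to 2000 UMIs, the median member held 0 Acta2 UMIs in every library, so these ratios describe a minority of members. In acute, mural cells held more Acta2 than the members did, and the part of any mural cells in these ratios was not tested.

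Of the genes lower in members than in the Pi16 and Dpp4 cells, the 8 lowest follow. Lbp, which carries bacterial lipopolysaccharide to its receptor, was a median of 4.05-fold lower, with log2 ratios between -2.46 in chronic and -1.5 in normal. Itih5, a hyaluronan-associated protein gene, was 2.91-fold lower, Sema3c, a guidance factor, 2.90-fold, and Prg4, the lubricant proteoglycan of joint and fascia surfaces, 2.59-fold. The acute-phase gene Saa3 was 2.54-fold lower, the complement regulator Cd55 2.52-fold, the pattern-recognition protein gene Ptx3 2.51-fold and Anxa3 2.36-fold. Mfap4 and Aspn, the given markers that the rule did not use, were higher than in the Pi16 and Dpp4 cells in 4 of 6 libraries each. Their medians were 1.31-fold and 1.25-fold. Of the given markers in the gate, Lum was a median of 1.28-fold and higher in 6 of 6 libraries. Dcn was 0.904-fold and higher in 1. Col1a1 was higher in 6 of 6 libraries by a median of 1.22-fold, and Col3a1 was higher in none.

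Against the cells with Cxcl5, in the 5 libraries that held at least 50 of them (all but pretreatment), 32 of 1316 genes were higher in members (2.43%) and 40 lower (3.04%). Mgp, which binds calcium and keeps matrix from mineralising, was 3.34-fold higher, Clec3b, a plasminogen-binding lectin gene, 2.73-fold, and Gas6, the ligand of the Axl receptor family, 2.32-fold. Aspn was 1.94-fold higher and in 5 of 5 libraries, although its log2 ratio was only 0.05 in chronic. Igfbp4, which binds insulin-like growth factors, was 1.88-fold higher, and Grem1 1.61-fold. Several inflammatory genes were lower in members: Serpinb2 by a median of 4.59-fold, Saa3 by 2.46-fold, the protease inhibitor gene Timp1 by 2.36-fold, Ptx3 by 2.26-fold, the cytokine Il11 by 2.12-fold and the growth factor Ereg by 2.08-fold. Mfap4 was 2.09-fold higher and in 4 of 5 libraries. Lum was 1.41-fold and higher in 5 of 5, and Dcn 0.944-fold and higher in 1.

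Against the cells with the Wif1 set, 21 of 573 genes were higher in members (3.66%) and 19 lower (3.32%). The higher genes were led by collagens and their partners: Col5a3 was a median of 3.45-fold higher, Col5a1 2.62-fold, Col1a1 2.25-fold, Col3a1 2.08-fold, the collagen-binding protein gene Sparc 1.95-fold and the crosslinking enzyme gene Loxl2 1.67-fold. In pretreatment and continuous the Col5a3 log2 ratios were 0.16 and 0.18, and in the other 4 libraries 1.74 to 2.66. The genes lower in members were led by Enpp2, the enzyme that makes lysophosphatidic acid, at 7.12-fold, and by the protease inhibitor gene Serpine2, at 4.71-fold. The lipid carrier apolipoprotein D (Apod) was 2.95-fold lower, and the immediate early gene Nr4a1 2.13-fold. The label's markers did not set the members apart from these cells: Mfap4 was a median of 1.05-fold and higher in 3 of 6 libraries, Aspn 1.36-fold and in 4, Dcn 0.847-fold and in 1, and Lum 0.651-fold and in 2. Among cells of both gates at 1% or more, 7 genes were higher and 8 lower.

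**Figure D3:**
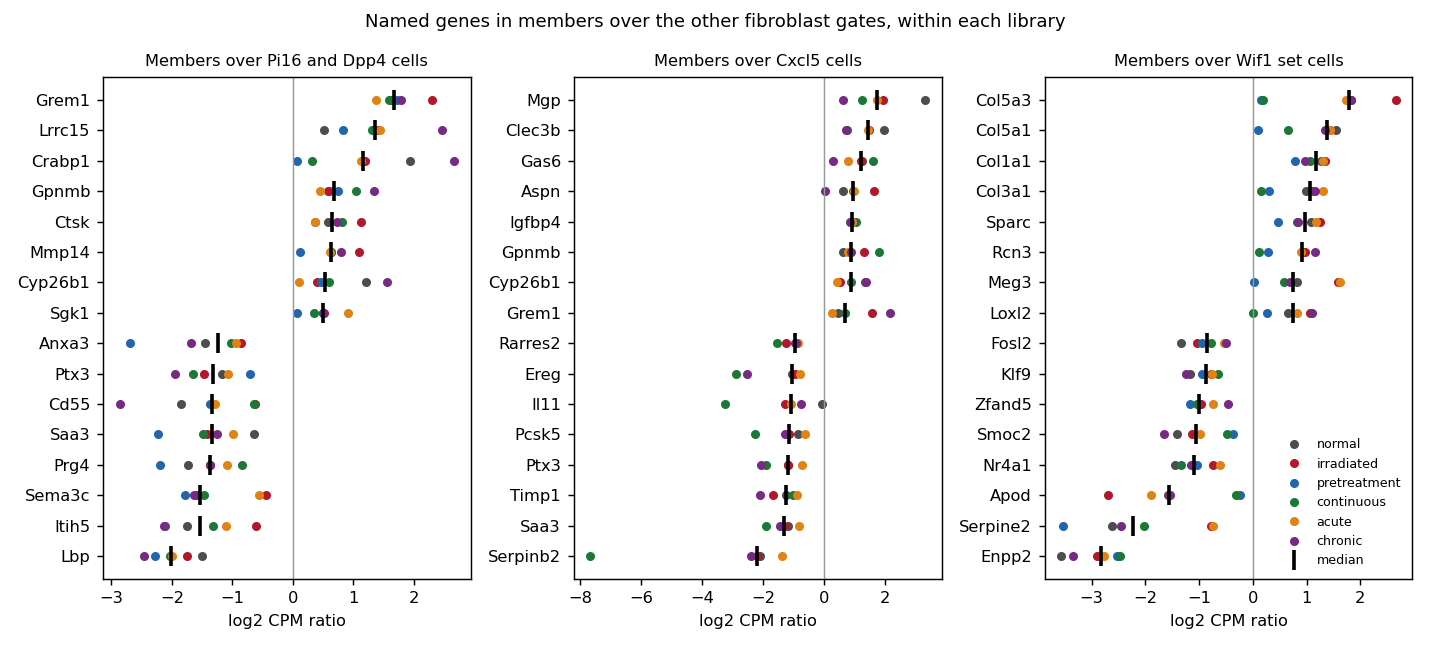
log2 CPM ratio of members over each of the 3 excluded fibroblast subsets (x) for the 8 highest and 8 lowest genes (y); each point is 1 library and the black bar is the median. Grem1, Col5a3 and Mgp head the higher genes, at medians of 1.67, 1.79 and 1.74, and Lbp, Enpp2 and Serpinb2 the lower ones.

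The members varied strongly among themselves. Spread was taken at 2000 UMIs per cell, in 403, 335, 122, 118, 501 and 98 members (normal, irradiated, pretreatment, continuous, acute, chronic). By the median over libraries of the variance over the mean, Saa3 had the widest spread (74.7), followed by Apod (61.4) and Malat1 (61.1). The order differed between libraries: Apod spread more than Saa3 in normal, pretreatment, acute and chronic. The median member held 18 Saa3 UMIs (normal), 11 (irradiated), 0 (pretreatment), 0 (continuous), 9 (acute) and 3 (chronic), and the highest member held 8 in pretreatment and 265 to 384 elsewhere. In continuous the top 10% of the members held 77.0% of the Saa3 UMIs, and in normal 38.9%. Apod was carried by fewer cells still: the top 10% held 89.9% of its UMIs in normal and 90.9% in chronic, but 40.1% in pretreatment, where the median member held 4. Mgp UMIs lay almost wholly in the top 10% in every library, at 87.5% to 100%. The stromelysin gene Mmp3, a matrix protease, was also uneven, with 47.7% to 82.2% of its UMIs there. Col1a1 was more even than Saa3, Apod, Mgp and Mmp3, at 24.3% to 42.2%. The summed levels below thus describe a minority of cells for Mgp, and most cells for Col1a1. For Apod they describe a minority in normal, irradiated, acute and chronic, where the median member held 0 Apod UMIs. In continuous the median member held 2 Apod UMIs, and the top 10% held 55.8%, so there and in pretreatment Apod was spread over more cells.

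The myofibroblast list was also counted at 2 or more UMIs per cell after the same thinning. It reached that in 90.1% of members (normal), 86.3% (irradiated), 29.5% (pretreatment), 66.9% (continuous), 90% (acute) and 76.5% (chronic). In non-fibroblast cells of the same libraries the shares for the whole list were 36.9%, 31.3%, 27.7%, 21.7%, 33.9% and 23.8%. The pretreatment members were thus close to that background, and the members of the other 5 libraries lay well above it. These are shares for any genes of the list and not for the contractile gene Acta2. At the same depth, normal members held a mean of 0.246 and a median of 0 Acta2 UMIs.

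The 5 library comparisons were then made within the members: irradiated over normal, and each of the 4 patch libraries over irradiated. Those 4 share the irradiated library, so their values stand side by side and are not support for one another. A gene was counted when it was at least 1.5-fold apart with a 95% interval of the ratio that excluded 1, among genes with at least 100 UMIs and 50 CPM in the higher library. The sizes of these sets differed: acute and irradiated were closest, with 1.34% of 3065 genes higher and 1.24% lower, and pretreatment and irradiated farthest, with 18.3% of 3003 genes higher and 28% lower. Gene lists were counted over genes with at least 20 UMIs over both libraries (measured genes).

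In the irradiated library, against normal, members held more RNA of Ptn, Pappa, interferon-induced genes and the metallothionein genes Mt1 and Mt2, and less of Apod. Of 3070 genes, 171 were higher (5.57%) and 110 lower (3.58%), and at 1% or more 142 (5.32%) and 87 (3.26%). Pleiotrophin (Ptn), a heparin-binding growth factor, stood at 29.8 CPM in normal and 281 in irradiated, with 26.0 (pretreatment), 37.0 (continuous), 246 (acute) and 174 (chronic). It was 9.42-fold higher in irradiated than in normal (7.20 to 12.5). Its level was high in irradiated, acute and chronic and low in the other 3. Among members at 1% or more, Ptn stood at 61.5 CPM in chronic, 1.53 in continuous and 0 in pretreatment, so most of its UMIs in those 3 libraries came from cells under 1%. Pappa, the protease that frees insulin-like growth factors from their binding proteins, stood at 13.4, 86.9, 39.0, 75.1, 79.5 and 58.0 CPM in library order. It was 6.47-fold higher in irradiated than in normal (4.29 to 10.1), and lowest in normal of all 6.

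Other growth and matrix genes were higher in irradiated too. Lif, a cytokine of the interleukin 6 family, was 3.47-fold higher (2.47 to 4.94), and the matricellular gene Ccn3 3.12-fold (2.50 to 3.91), with 27.9% of its irradiated UMIs in 1 cell. Tenascin N (Tnn) was 2.29-fold higher (1.85 to 2.85), and the type VIII collagen gene Col8a1 2.64-fold (2.17 to 3.22). In the members at 1% or more, Serpine2 was 3.49-fold higher (2.87 to 4.26) and Pi15, a secreted protease inhibitor gene, 3.46-fold (2.51 to 4.83). The chemokine gene Cxcl13, which draws B cells, was 4.86-fold higher in all members and 3.24-fold in those at 1% or more. Over all irradiated members, 1 cell held 24.8% of its UMIs and 5 cells held 65.4%. The fat cell genes Cidec and Cfd depended on the cells counted: Cidec was 7.22-fold higher over all members but 0.922-fold at 1% or more, and Cfd 4.22-fold higher but 0.196-fold.

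Against 5.31% of 10189 genes higher and 5.03% lower, with a median log2 ratio of -0.01, 16 of 26 measured type I interferon genes were higher and none lower, with a median of 0.77. Of 24 measured at 1% or more, 13 were higher and none lower, where 4.68% of 9659 genes were higher and 4.65% lower. Ifi44 stood at 15.9 CPM in normal and 63.4 in irradiated (3.99-fold, 2.67 to 6.09), and Oas1a, an antiviral enzyme gene, was 8.06-fold higher (2.42 to 42.1) from few UMIs. Other cells of the same library also carried these genes: Ifi44 stood at 128 CPM in the endothelial gate. Of 26 inflammatory cytokine and NF-kB genes, 12 were higher and 1 lower (median 0.51): Csf2 was 4.23-fold higher (2.26 to 8.49), with 30.0% of its UMIs in 1 cell, and Relb 1.79-fold lower (1.18 to 2.78). Of 21 p53 and senescence genes, 8 were higher and none lower (median 0.54). Cdkn2a, a cell cycle inhibitor of senescent cells, was 6.78-fold higher (2.84 to 19.7), from 2.98 to 20.2 CPM, and the p53 target Cdkn1a 2.11-fold (1.90 to 2.35), from 274 to 580 CPM. Of 25 proliferation genes, none was higher and 12 lower in summed UMIs (median -0.66): the mitotic genes Birc5 and Kif23 were 3.27-fold (1.82 to 6.25) and 3.33-fold (1.31 to 10.1) lower. With each member thinned to 1000 UMIs, which leaves fewer genes measured, that median was 0.08, and at 2000 UMIs per cell the list reached 2 UMIs in 40.4% of normal and 41.8% of irradiated members, against 57.7% and 55.7% of the non-fibroblast cells.

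The related metal-binding metallothionein genes Mt1 and Mt2 were 2.72-fold (2.62 to 2.82) and 2.44-fold (2.35 to 2.54) higher in irradiated. Mt1 stood at 1994 CPM (normal), 5418 (irradiated), 2383 (pretreatment), 8041 (continuous), 5491 (acute) and 3323 (chronic). Apod stood at 2000, 843, 3617, 2832, 1295 and 2569 CPM in the same order and was 2.37-fold lower in irradiated than in normal (2.24 to 2.52), the lowest of the 6. The basement membrane collagen gene Col15a1 was 3.39-fold lower (2.73 to 4.23), and the chemokine Cxcl12, which holds leukocytes in tissue, 1.68-fold (1.58 to 1.79). Haptoglobin (Hp), an acute-phase gene, was 1.63-fold lower (1.54 to 1.73) and at 1% or more 2.96-fold (2.74 to 3.19), but 1.70-fold higher in members with no UMI of an excluding gene. The immediate early genes Fos and Fosb were 1.73-fold and 1.85-fold lower. Of the 25 measured AP-1 and immediate early genes, 0 were higher and 3 lower (median -0.20), against 5.31% higher and 5.03% lower of 10189 genes. Fibrillar collagen genes differed little: of 8 measured, none was higher and 1 lower, with a median of -0.28.

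The pretreatment members differed from the irradiated members in most of the lists, and the library also stood apart in neutrophil RNA and depth, whose part in these values was not tested. Of 3003 genes, 550 were higher (18.3%) and 840 lower (28%), at 1% or more 394 (16%) and 752 (30.5%), and the median ratio of these genes was -0.10 on the log2 scale. Most genes of the myofibroblast and fibrillar collagen lists were lower. Of 14 measured myofibroblast genes, none was higher and 13 lower (median -2.54), against 16.2% higher and 19.4% lower of 9900 genes, whose median was -0.02. Postn, a matricellular protein of wounds and scars, stood at 1549 CPM (normal), 1989 (irradiated), 315 (pretreatment), 1160 (continuous), 1939 (acute) and 1982 (chronic). It was 6.31-fold lower in pretreatment than in irradiated (5.74 to 6.95). Tenascin C (Tnc), another wound matrix protein, stood at 1354, 1944, 175, 1327, 2004 and 1137 CPM in the same order and was 11-fold lower (9.82 to 12.6). Acta2 stood at 136, 130, 22.1, 264, 218 and 139 CPM and was 5.88-fold lower (4.10 to 8.70). At 2000 UMIs per cell, 1 continuous member held 29 Acta2 UMIs, where the mean over 118 members was 0.441. For all 3 genes pretreatment was the lowest of the 6 libraries by a wide margin.

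Of 8 fibrillar collagen genes, none was higher and 6 lower in pretreatment (median -1.54). Col1a1, the most abundant of them, was not among the 6: it stood at 14663 CPM in irradiated and 19322 in pretreatment, the highest of the 6 libraries, a ratio of 1.32 (1.30 to 1.34) that lay under the fold limit. Col1a2, a gene of the gate, stood at 14127 and 15824 CPM. Col5a3 was 8.63-fold lower (7.03 to 10.7) and Col11a1 10.9-fold (4.80 to 30.7), and Col24a1 had 0 UMIs, against 22.9 CPM in irradiated. The enzymes that hydroxylate and crosslink collagen were lower as well, 11 of 17, with 4 higher (median -0.93). Loxl3 was 35.3-fold lower (14.9 to 110) and Plod2 17.1-fold (10.7 to 29.2), but Loxl4 was 3.89-fold higher (1.94 to 8.48). Pcolce2, which speeds the trimming of procollagen, went the other way by the widest margin of the list. It stood at 37.3 CPM (normal), 36.1 (irradiated), 494 (pretreatment), 131 (continuous), 18.8 (acute) and 31.1 (chronic), 13.7-fold higher in pretreatment than in irradiated (10.6 to 17.9). Of 17 matricellular genes, 2 were higher and 11 lower (median -1.80): tenascin X (Tnxb), of quiet dermis and tendon, was 3.22-fold higher (2.77 to 3.75), and osteopontin (Spp1) 51.7-fold lower (34.6 to 81.0). Spp1 also stood at 2660 CPM in the neutrophil gate of irradiated.

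Elastic fibre and proteoglycan genes did not lie on 1 side, with 8 of 17 elastic fibre genes higher and 7 lower. The latent TGF-beta binding protein gene Ltbp1 was 6.73-fold higher (5.39 to 8.48) and fibulin 3 (Efemp1) 4.62-fold (4.06 to 5.27), while Mfap5 was 7.93-fold lower (6.45 to 9.85). Among proteoglycans, Ecm2 was 10.5-fold higher (7.26 to 15.6) and fibromodulin (Fmod) 12.2-fold lower (3.08 to 105). Cathepsin K (Ctsk) stood at 879 CPM in irradiated and 3122 in pretreatment (3.55-fold, 3.36 to 3.76), and the collagenase gene Mmp13 and the stromelysin gene Mmp10 were 175-fold (59.7 to 853) and 156-fold (27.7 to 6208) lower. In irradiated, 1 cell held 27.8% of the Mmp13 UMIs and 31.2% of the Mmp10 UMIs, and 5 cells held 72.8% and 80.1%.

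Inflammatory genes were far lower in pretreatment. Saa3 stood at 20440 CPM (normal), 14966 (irradiated), 125 (pretreatment), 9883 (continuous), 15672 (acute) and 11197 (chronic). It was 120-fold lower in pretreatment than in irradiated (104 to 139). Of 15 chemokine genes, 3 were higher and 12 lower (median -2.80). Cxcl2 was 33.9-fold lower (29.7 to 38.8) and Cxcl3 246-fold (67.8 to 2035), and both are abundant in the neutrophil gate of irradiated, at 42895 and 3124 CPM. Ccl19, which guides dendritic and T cells and has near-identical copies in the mouse genome, was among the 3 higher ones. It stood at 32.8, 27.9, 589, 127, 16 and 36.8 CPM in library order, 21.1-fold higher in pretreatment than in irradiated (15.9 to 28.6). It was at 21.4 CPM in mural cells, the other cell type where it was highest in pretreatment.

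The NF-kB list held 4 higher and 16 lower of 26 genes. The NF-kB subunit gene Relb was 2.72-fold higher (1.81 to 4.17) and the adhesion molecule Icam1 2.22-fold (1.94 to 2.55), while Il1b was 255-fold lower (109 to 788) and Csf2 had 0 UMIs. Il1b is a neutrophil marker, at 10896 CPM in that gate. Hp and Ereg had 0 UMIs in pretreatment, which allows 3 counts, and were at least 497-fold and at least 118-fold lower. Serpinb2, a protease inhibitor of stressed cells, had 1 UMI and was 626-fold lower (112 to 24766). In library order, Serpinb2 stood at 317, 407, 0.650, 1.03, 370 and 113 CPM and Ereg at 137, 231, 0, 11.3, 232 and 22.6 CPM. Both were near 0 in pretreatment and continuous and low in chronic. The neutrophil gate of irradiated held 546 CPM of Serpinb2, 76.7 of Ereg and 303 of Hp. Of 25 interferon genes, none was higher and 19 lower (median -2.12), and Ifi44 stood at 1.30 CPM. Of 26 hypoxia and glycolysis genes, none was higher and 17 lower (median -0.85), among them the glucose transporter gene Slc2a1, 4.71-fold (3.01 to 7.70), which stood at 197 CPM in neutrophils.

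Wnt modulators were mostly higher in pretreatment, and insulin-like growth factor binding proteins lay on both sides. Of 16 Wnt modulators, 9 were higher and 3 lower (median 1.07, and -0.18 with members thinned to 1000 UMIs). Rspo1, which strengthens Wnt signals, was 12.0-fold higher (5.83 to 28.8), and Apcdd1, a Wnt inhibitor, 7.20-fold (5.46 to 9.62). Sfrp2, a secreted Wnt binder, stood at 364, 231, 3.25, 52.5, 262 and 363 CPM in library order, 71.1-fold lower in pretreatment than in irradiated (30.2 to 220). The growth factor binding protein gene Igfbp2 stood at 26.3, 56.3, 668, 455, 67.5 and 110 CPM in the same order and was 11.9-fold higher (9.69 to 14.7). Igfbp5 was 4.21-fold higher (3.72 to 4.78) and Igfbp4 5.69-fold lower (4.76 to 6.83). The serpin gene Serpina3n was 4.70-fold higher (4.43 to 4.99), the cartilage layer protein gene Cilp 5.02-fold (4.17 to 6.08), the dermal transcription factor gene Osr2 4.25-fold (3.19 to 5.74) and Apod 4.29-fold (4.06 to 4.54).

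Most of the highest ratios in pretreatment rested on few cells. Of the 8 highest genes over all members, 7 had UMIs in fewer than 10 cells or more than 25% of them in 1 cell. Elovl3, Fa2h and Elovl6, enzymes of sebaceous lipid synthesis, were 154-fold, 121-fold and 111-fold higher over all members, while at 1% or more Elovl3 and Fa2h had no UMI in pretreatment and Elovl6 had a ratio of 0.662. Cdh4, a cadherin gene, was 62.7-fold higher (21.1 to 307) over all members and 63.5-fold (21.3 to 311) at 1% or more. At 1% or more the detoxifying enzyme genes Aldh3a1 and Cyp2f2 were 30.6-fold (12.8 to 95.8) and 19.2-fold (13.4 to 28.3) higher, Pcolce2 17.0-fold (12.9 to 22.8), and Aspg, an asparaginase gene with 0 UMIs in irradiated, at least 52.6-fold. Of the lists above, 13 of 14 myofibroblast and 6 of 8 fibrillar collagen genes were lower at 1% or more as well, where 13.2% of 9109 genes were higher and 20.7% lower.

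**Figure D4:**
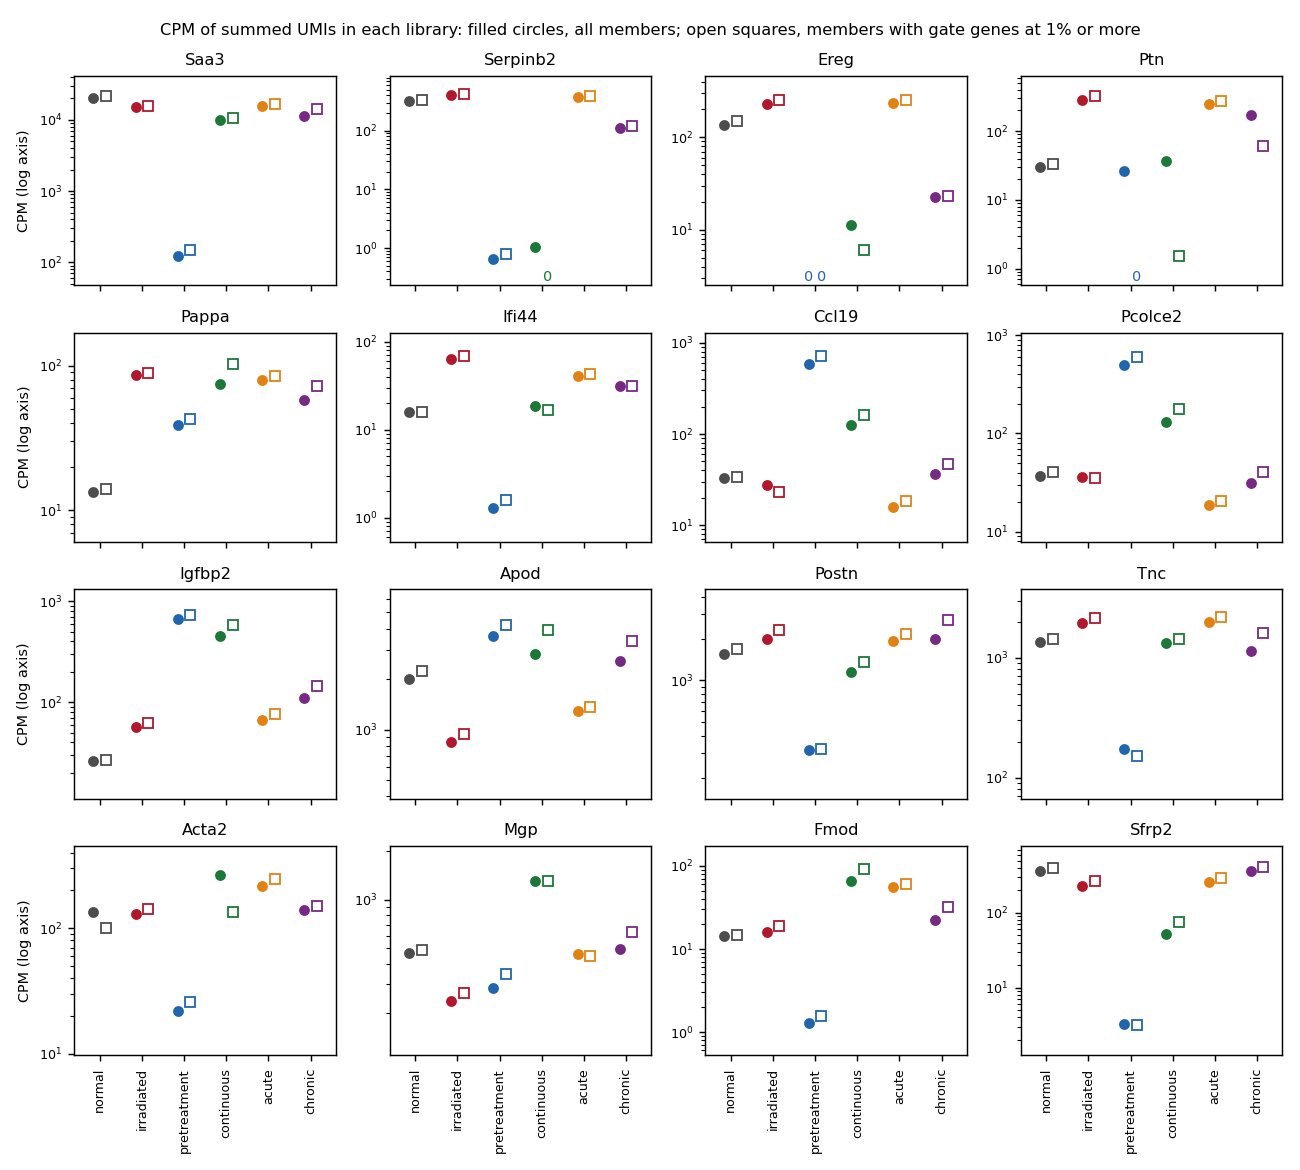
CPM of 16 genes (panels, y, log axis) in each library (x); filled circles are all members, open squares are the members whose gate genes held 1% of UMIs or more, and 0 marks no UMI. Saa3, Postn, Tnc, Acta2 and Sfrp2 are lowest in pretreatment, Ccl19, Pcolce2 and Igfbp2 are highest there and next highest in continuous, and Pappa is lowest in normal.

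In the continuous library, against irradiated, collagen genes and their processing enzymes were lower, inflammatory genes were lower, and Igfbp2, Mgp and Ccl19 were higher. Of 2434 genes, 274 were higher (11.3%) and 576 lower (23.7%), and their median ratio was -0.20 on the log2 scale. With that median set to 0 the counts were 419 and 409, and at 1% or more they were 189 (9.93%) and 473 (24.8%). Igfbp2 was 8.08-fold higher (6.51 to 10.1), from 56.3 to 455 CPM. Its continuous UMIs lay in 33 members, with 20.8% in 1 cell and 58.1% in 5 cells. Mgp stood at 466 CPM (normal), 237 (irradiated), 286 (pretreatment), 1299 (continuous), 459 (acute) and 496 (chronic), 5.48-fold higher in continuous (4.91 to 6.12), and continuous was the highest of the 6. Ccl19 was 4.54-fold higher (3.25 to 6.43), Cilp 4.06-fold (3.31 to 5.00), Apod 3.36-fold (3.16 to 3.58), with 25.3% of its UMIs in 1 cell, and Pcolce2 3.62-fold (2.67 to 4.96). Hp, which had no UMI in pretreatment, was 2.54-fold higher (2.39 to 2.71), at 2467 CPM, with 24.1% of its UMIs in 1 cell.

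Of 8 fibrillar collagen genes, none was higher and 7 lower in continuous (median -1.02), against 10.6% higher and 13.3% lower of 9295 genes, whose median was -0.03. Col3a1 was 2.09-fold lower (2.03 to 2.15), from 12055 to 5765 CPM, Col5a3 2.79-fold (2.40 to 3.27) and Col24a1 4.46-fold (1.77 to 14.4). Col1a1 was 1.53-fold lower (1.5 to 1.57) over all members and 1.26-fold (1.23 to 1.29) at 1% or more, under the fold limit. Of 17 crosslinking and folding genes, 2 were higher and 12 lower (median -0.91), with Plod2 4.75-fold lower (3.44 to 6.73) and Loxl4 3.60-fold higher (1.66 to 8.26). The myofibroblast list was mixed, with 6 of 15 higher and 4 lower. The contractile genes Cnn1 and Mylk were higher over all members, with 96.0% and 65.3% of their UMIs in 1 cell, and at 1% or more 2 list genes were higher and 6 lower, where 8.24% of 8313 genes were higher and 12.9% lower.

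Of 26 NF-kB and cytokine genes, 2 were higher and 12 lower in continuous (median -0.53). The summed neutrophil markers of the members were 4774 CPM in irradiated and 1580 in continuous, and the leukocyte markers 425 and 78.2, and their part in these genes was not tested. Csf2 was 8.85-fold lower (2.86 to 44.4), Il1b 6.30-fold (5.26 to 7.61) and Il11 5.23-fold (2.95 to 10.1), and Relb 2.10-fold higher (1.30 to 3.41). Of 26 interferon genes, none was higher and 12 lower (median -0.67), with Rsad2, an antiviral enzyme gene, 6.12-fold lower (3.61 to 11.2). Serpinb2 was 396-fold lower (70.8 to 15645) from 1 UMI, Ereg 20.4-fold (11.3 to 41.1), the imprinted RNA H19 37.0-fold (16.9 to 101) and Prss35, a protease-like gene with 0 UMIs, at least 29.2-fold. The nitric oxide synthase gene Nos2 was 29.1-fold lower (11.2 to 108), and it stood at 210 CPM in the neutrophil gate of irradiated. Ptn was 7.58-fold lower (5.40 to 10.9) and at 1% or more 212-fold (38.0 to 8409), with 1 UMI left.

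Keratins of the hair follicle and genes of dividing cells were among the higher genes in continuous. The inner root sheath keratin gene Krt25 had 0 UMIs in irradiated and was at least 115-fold higher over all members. The histone gene Hist1h1b was 52.7-fold higher (20.0 to 197) over all members and had no UMI at 1% or more, and the dividing-cell marker Mki67 was 5.58-fold higher (3.53 to 9.07) but 0.117-fold at 1% or more. Proliferation genes were higher in 9 of 22 and lower in none over all members (median 0.81), and higher in none and lower in 6 of 13 at 1% or more (median -1.23). Cxcl13 was 4.31-fold higher (3.88 to 4.80) with 73.9% of its UMIs in 1 cell, and 1.39-fold at 1% or more. At 1% or more the proteoglycan list held 4 higher and 1 lower of 8 genes (median 0.66), with Fmod 4.94-fold higher (3.13 to 7.97). Gpnmb was 3.47-fold higher there (2.86 to 4.22) and Cpxm2, a carboxypeptidase-like secreted protein gene, 3.70-fold (2.73 to 5.06).

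The acute members were nearest to the irradiated members. Of 3065 genes, 41 were higher (1.34%) and 38 lower (1.24%), and at 1% or more 52 (1.83%) and 27 (0.951%). Fmod, which shapes collagen fibrils, stood at 14.4 CPM (normal), 15.8 (irradiated), 1.30 (pretreatment), 65.9 (continuous), 55.1 (acute) and 22.6 (chronic), and was 3.48-fold higher in acute than in irradiated (2.32 to 5.39). It was high in continuous, where 1 cell held 39.1% of its UMIs, and in acute, and nearly missing from pretreatment. The fibril collagen gene Col11a1 was 2.12-fold higher (1.63 to 2.78), the secreted glycoprotein gene Angptl1 2.08-fold (1.52 to 2.90), Cpxm2 1.99-fold (1.51 to 2.64), Mgp 1.93-fold (1.73 to 2.16) and thrombospondin 4 (Thbs4), a tendon matrix gene, 1.79-fold (1.49 to 2.15). Col11a1, Fmod and Thbs4 are all known from tendon or cartilage matrix. The tendon or cartilage list summed to 278 CPM in the acute members and 136 CPM in the irradiated members. That list holds Fmod and Thbs4 themselves, at 55.1 and 163 CPM in acute and 15.8 and 91.2 in irradiated. Its sums are thus not separate from these genes. Carbonic anhydrase 4 (Car4) was 1.97-fold higher (1.65 to 2.35).

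Of 15 myofibroblast genes, 5 were higher and none lower in acute (median 0.47), against 2.65% higher and 2.46% lower of 10382 genes, whose median was 0.03. Acta2 was 1.68-fold higher (1.44 to 1.96), Tagln 1.79-fold (1.52 to 2.10), Tpm2 1.77-fold (1.44 to 2.19) and Myl9 1.71-fold (1.16 to 2.55), although thinning to 1000 UMIs turned Myl9 to a ratio of 0.789. All these contractile genes were higher still in mural cells, at 1579 CPM for Acta2, and the mural markers themselves summed to 82.7 CPM in acute members and 69.4 in irradiated members. Of the 15, at 1% or more, 4 were higher and none lower, where 2.53% of 9863 genes were higher and 2.33% lower. Of 26 interferon genes, none was higher and 6 lower (median -0.40), with the interferon-induced GTPase gene Iigp1 2.23-fold lower (1.92 to 2.61). Tppp3, a tubulin-binding protein gene known from tendon sheath cells, was 2.24-fold lower (1.80 to 2.80). Cxcl13 was 2.74-fold lower (2.35 to 3.20), with 65.4% of its irradiated UMIs in 5 cells. Saa1, which has a near-identical copy, was 2.65-fold lower (2.02 to 3.51), with 36.3% of its irradiated UMIs in 1 cell. The fat cell genes Cidec, Car3 and Cfd were 2.82-fold, 1.88-fold and 1.68-fold lower over all members, and at 1% or more their ratios were 1.78, 14.9 and 10.5. Of 21 p53 and senescence genes in acute, 0 were higher and 0 lower, and of 27 hypoxia and glycolysis genes 1 was higher and 1 lower.

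In the chronic library, against irradiated, most NF-kB and cytokine genes were lower, and counts in the matrix lists varied by list. Of 2171 genes, 153 were higher (7.05%) and 477 lower (22%), with a median of -0.26 on the log2 scale. With that median set to 0 the counts were 289 and 253, and at 1% or more they were 67 (3.9%) and 316 (18.4%). Of 26 NF-kB and cytokine genes, 1 was higher and 17 lower (median -0.99), against 8.87% higher and 9.44% lower of 9067 genes, whose median was -0.02. Csf3, the growth factor of neutrophils, was 25.8-fold lower (9.96 to 95.4), Csf2 19.3-fold (3.31 to 778) and Il1b 5.15-fold (4.25 to 6.28). Csf3 stood at 447 CPM in the neutrophil gate of irradiated. At 1% or more, none of the 26 was higher and 17 lower, where 4.76% of 8126 genes were higher and 7.41% lower. The summed neutrophil markers of the members were 1209 CPM in chronic and 4774 in irradiated, and their part in these genes was not tested.

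Ereg was 10.2-fold lower in chronic (6.20 to 18.0), Pi15 6.22-fold (3.30 to 13.2), H19 4.75-fold (3.35 to 6.95) and Nos2 4.70-fold (2.91 to 8.08). The collagenase gene Mmp13 was 5.63-fold lower (4.13 to 7.85), while Mmp11, stromelysin 3, was 3.10-fold higher (2.17 to 4.42). The growth factor gene Inhba was 2.84-fold lower (2.35 to 3.44) and elastin (Eln) 2.41-fold (1.87 to 3.14). Mt1 and Mt2 were 1.63-fold (1.56 to 1.71) and 1.95-fold (1.85 to 2.05) lower, and Cdkn1a 2.06-fold (1.77 to 2.41). Of 8 fibrillar collagen genes, none was higher and 2 lower (median -0.37), and at 1% or more 1 was lower. Of 17 matricellular genes, 1 was higher and 7 lower (median -0.45), and at 1% or more 2 and 5. Of 18 matrix protease and inhibitor genes, 1 was higher and 5 lower, and at 1% or more 4 and 4. Of 17 elastic fibre genes, 2 were higher and 3 lower, and at 1% or more 4 and 2.

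Apod was 3.05-fold higher in chronic (2.85 to 3.27), with 34.8% of its UMIs in 1 cell, and the Wnt binder Sfrp4 2.55-fold (1.75 to 3.70), with 41.7% in 1 cell. At 1% or more, the actin-severing protein gelsolin (Gsn) was 2.48-fold higher (2.27 to 2.70) and Mgp 2.39-fold (2.06 to 2.79). The central complement gene C3 was 1.91-fold higher (1.77 to 2.05), Gpnmb 1.87-fold (1.45 to 2.40) and the secreted protease gene Htra1 1.83-fold (1.52 to 2.19). Of the 73 chronic cells, Mgp and Gpnmb lay in 21 and 28, with 67.5% and 55.9% of their UMIs in 5 cells. Gsn, C3 and Htra1 lay in 61, 55 and 53, with 42.8%, 44.5% and 36.6% in 5 cells. Over all members, Krt25 had 0 UMIs in irradiated and was at least 97.5-fold higher in chronic, and Stmn1, a tubulin regulator of dividing cells, was 5.09-fold higher (3.91 to 6.66). At 1% or more, Krt25 had no UMI in either library and Stmn1 had a ratio of 1.10. Proliferation genes were higher in 18 of 24 and lower in none over all members (median 1.60), and higher in 1 and lower in 1 of 11 at 1% or more (median 0.27).

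**Figure D5:**
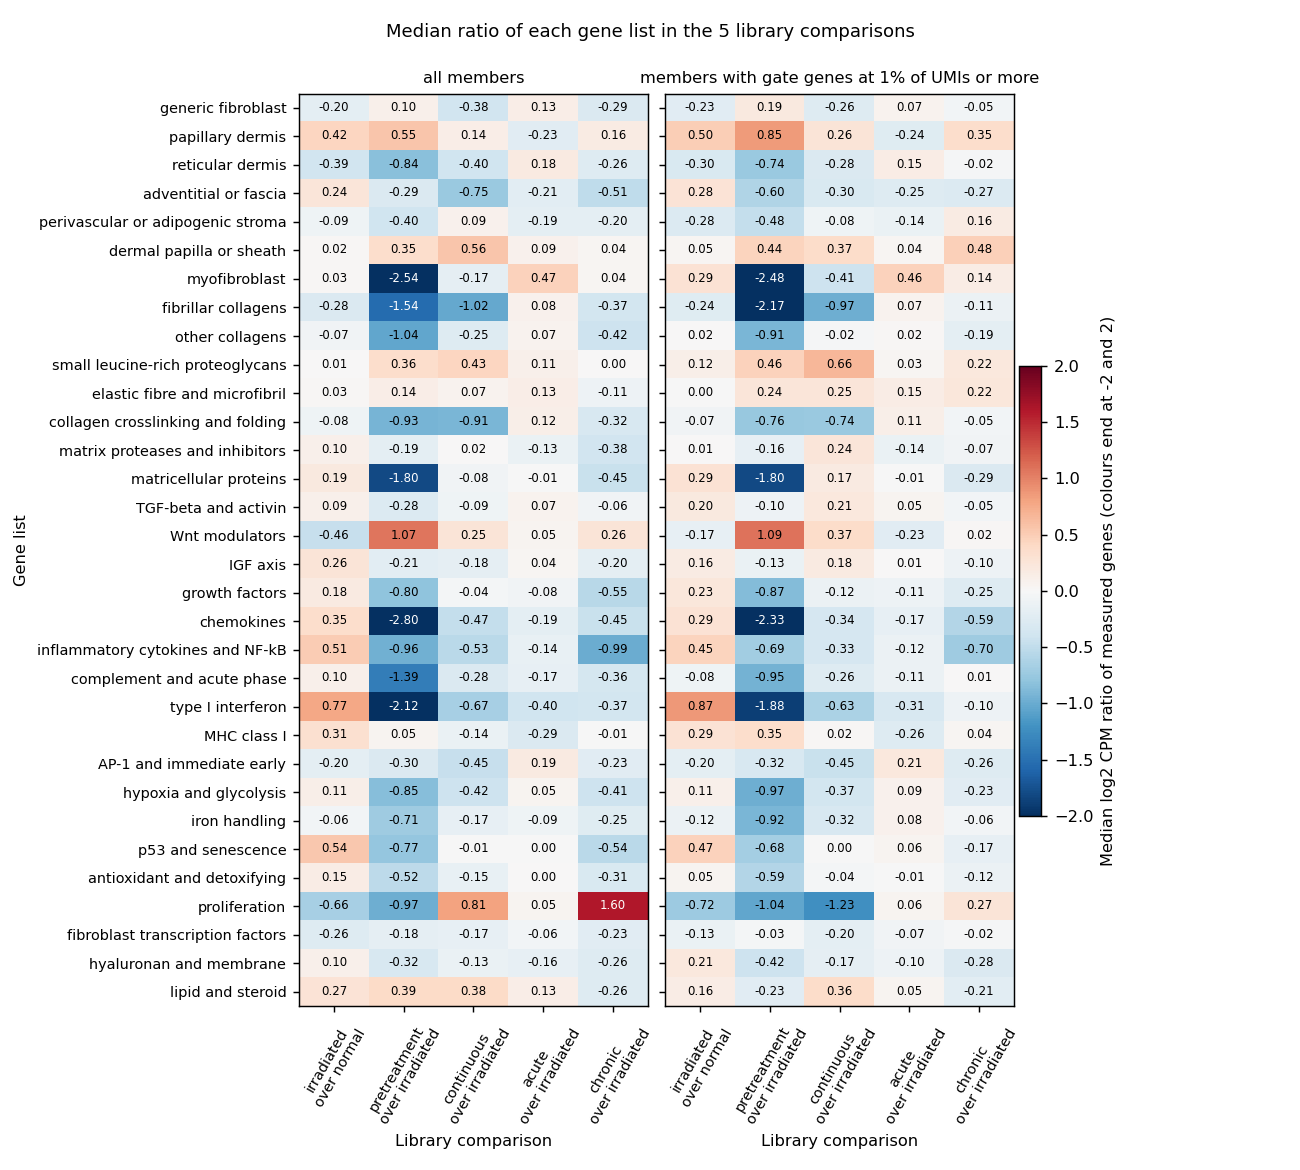
Median log2 CPM ratio of the measured genes of each list (rows) in the 5 library comparisons (columns) for all members (left) and for members with gate genes at 1% of UMIs or more (right); colours end at -2 and 2. The pretreatment column is the most extreme, with myofibroblast genes at -2.54, and the proliferation row differs most between the panels, from 1.60 to 0.27 in chronic and from 0.81 to -1.23 in continuous.

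The highest hashtag antibody differed among the members of 1 library. In normal, irradiated and chronic, a single tag was the highest in 574 of 576, 426 of 441 and 113 of 115 members. In acute tag 1 was the highest in 160 members and tag 2 in 522. Both tags stood at like levels in acute, with medians of 413 and 460 UMIs per member and overlapping ranges. The counts by highest tag thus do not show separate groups of cells there. No source ties a tag to an animal, so the tags were not used as replicates.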

How the data were processed

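Each deposited matrix holds raw counts (UMIs by gene and cell barcode), and per the file headers the software was Cell Ranger 6.0.0. Tools named in the submitters' processing notes are Cell Ranger and Seurat 5.0.1, with the pig build Sscrofa11.1. The mouse build is not given in the sources used here. Libraries were grouped by their titles, 1 per label. UMIs of antibody features did not enter the gene totals. The members and gene lists were chosen with earlier results of these data known.

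UMIs were summed over the members of each library, divided by their total gene UMIs and given as CPM. Ratios had exact conditional binomial 95% intervals, and shares exact Clopper-Pearson intervals. Both cover counting error only, and a count of 0 was read as at most 3 counts. A gene counted as higher or lower at 1.5-fold or more with an interval excluding 1, given at least 100 UMIs and 50 CPM in the higher library, or at least 20 UMIs over both for gene lists. Genes of the rule were left out of the lists, but not out of the counts over all genes. Coarse gates of other cell types, such as neutrophils, needed at least 50 cells.

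Named genes were the 8 highest and 8 lowest ratios per comparison whose CPM in members was at least 0.5 times that of every coarse gate of another cell type, and up to 2 highest and 2 lowest genes per list, of which a part is printed. The same rule was applied, after seeing the data, to members whose gate genes held at least 1% of UMIs, leaving out genes with UMIs in under 10 cells or over 25% of them in 1 cell. Against the other fibroblast gates, the 8 highest and 8 lowest median ratios were named. Acta2, Mfap4, Aspn and the genes printed for every library beyond these rules were chosen after their values were seen. Alternatives changed the UMI minimum, the mitochondrial limit, the excluding limits, the depth, the scaling, the weight of cells and mixed cells, meaning cells with at least 2 UMIs in all of 8 markers of other types. The code for the ratios was run on simulated counts without any spread between cells. That run cannot show how the intervals behave for genes carried by few cells. Python 3.11.15, numpy 2.4.6, scipy 1.17.1, pandas 2.3.3 and matplotlib 3.10.9 were used.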

Additional observations from a re-analysis of the deposited data

Results flagged for a closer look

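Anti-mouse hashtag antibody counts lie outside every comparison above. In the members they summed to 922647 UMIs in normal, 747758 in irradiated, 768451 in acute and 235672 in chronic.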

How the results depend on the processing

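No paired analysis was possible because each label has 1 library, and no replicate could be left out. Of 72 alternative shares, 31 stayed within the main interval. Of gated cells, the share at a mitochondrial limit of 10% was 31.6% in normal and 24.4% in pretreatment, with gate genes at 1% or more it was 29.6% in chronic, with 0 UMIs of the excluding genes it was 16.4%, 19.2%, 17.6%, 17.0%, 25% and 22% (order: normal, irradiated, pretreatment, continuous, acute, chronic), and at 2000 UMIs 49.4%, 47.4%, 59.7%, 48.4%, 56.3% and 56.2%. Of kept cells, it was 3.52% in normal, 2.16% in irradiated and 3.12% in acute at 500 UMIs, 4.23% in normal and 8.33% in pretreatment at the 10% limit, 2.24%, 1.41%, 6.09%, 1.01%, 2.38% and 0.828% with 0 UMIs of the excluding genes, 4.09% in normal, 2.17% in irradiated, 3.52% in acute and 1.03% in chronic without mixed cells, 4.07%, 2.13%, 1.06%, 3.62% and 0.864% at 1% or more in all but pretreatment, and 12.6%, 6.81%, 20.6%, 3.55%, 10.4% and 2.99% at 2000 UMIs.

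Counts of higher and lower genes (irradiated, pretreatment, continuous, acute, chronic) were 541 and 512, 1604 and 1922, 988 and 1232, 275 and 255, and 804 and 856 with a floor of 20 UMIs. With members thinned to 1000 UMIs, which leaves fewer UMIs per gene, they were 59 and 36, 55 and 230, 48 and 150, 21 and 8, and 50 and 125. With 0 UMIs of the excluding genes, 56 were lower in irradiated, 493 in pretreatment, 347 in continuous and 311 in chronic, and 74 higher in acute. With the median ratio set to 0, 419 were higher in continuous, and 289 higher and 253 lower in chronic. In chronic 94 were higher without mixed cells, and 67 higher and 316 lower at 1% or more. Against the Pi16 and Dpp4 cells, 32 were higher without the pretreatment library. Against the Wif1 set, 13 were higher without mixed cells, 7 higher and 8 lower at 1% or more, and 33 higher and 29 lower without the pretreatment library. Other than fewer genes or cells, the cause of these shifts was not tested.

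Of 960 alternative list medians, 937 stayed within 1.5-fold of the main value with no change of a called direction. The proliferation median became 0.0778 in irradiated over normal and the Wnt median -0.18 in pretreatment at 1000 UMIs per member, and the proliferation median in continuous -1.31 without mixed cells and -1.23 at 1% or more. Of 886 alternative ratios of named genes, 584 stayed within the interval of the main ratio, 284 lay outside it on the same side of 1 or without a call, and 18 were on the other side of 1 (Krt25 and Aspg, with 0 UMIs in irradiated, were not recomputed). Hp in irradiated over normal was 1.70 with 0 UMIs of the excluding genes, and Myl9 in acute 0.789 at 1000 UMIs. Cidec and Cfd at 1% or more were 0.922 and 0.196 in irradiated over normal and 1.78 and 10.5 in acute, where Car3 was 14.9. Without mixed cells and at 1% or more, Elovl3, Fa2h and Hist1h1b had a ratio of 0, Elovl6 0.584 and 0.662, and Mki67 in continuous 0.0917 and 0.117, and Cnn1 had a ratio of 0 at 1% or more. Both the 1% limit and leaving out the pretreatment library were chosen after seeing the data. Chronic and continuous had the fewest members, 115 and 134, and normal the lowest median depth, 2901 UMIs.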
